A study of Homo sapiens with 2 samples.

Results

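LPP and its relatives of the zyxin family of LIM proteins were examined in RWPE-1, an immortalized noncancerous human prostate epithelial cell line, after transfection with pre-miR-424, a synthetic precursor of the microRNA miR-424, or with the control precursor Negative control #1, each at 30 nM. The family comprised 7 genes (LPP, ZYX, TRIP6, AJUBA, LIMD1, WTIP and FBLIM1) of the 19740 genes that the array names through RefSeq, and all 7 were among the 13812 genes measured above background. Members were chosen by the log2 ratio of LPP in these same arrays, where it was among the largest decreases, and by the relation of the other genes to it, so that the values of LPP are a description. RNA of both transfections was labelled with Cy3 or Cy5 and co-hybridized on 2 Agilent arrays: on the array with normal labelling the pre-miR-424 RNA carried Cy5, and on the dye swap it carried Cy3. As a dye swap both arrays were counted as 1 comparison, so no p-value was computed, and the difference between the arrays covers labelling and hybridization only. The labels give neither the time after transfection nor the number of cultures.

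LIM proteins of the zyxin family carry zinc-binding LIM domains at their C-terminus, through which they dock to other proteins, and link cell adhesions to actin filaments. They sit at focal adhesions, where integrins hold the extracellular matrix, and at cell-cell junctions, and several of them also enter the nucleus. In epithelia, ZYX and LPP recruit actin-elongating proteins of the Ena/VASP family, whereas AJUBA, LIMD1 and WTIP bind the LATS kinases of the Hippo pathway and also Argonaute proteins, the effectors of microRNA silencing. A microRNA lowers its target transcripts mostly through pairing of its seed, bases 2 to 8 from the 5′ end, with sites that lie mainly in the 3′ part of the transcript.

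The mature sequence of miR-424-5p, the 5′ arm of the transfected precursor, is shown for its seed, together with RefSeq microRNAs (GRCh38.p14) that are grouped by that seed. The seed is in capitals. It was identical in 7 mature microRNAs, of which 6 are given here and miR-6838-5p is named only.

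hsa-miR-424-5p: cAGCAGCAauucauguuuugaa
hsa-miR-497-5p: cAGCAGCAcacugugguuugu
hsa-miR-195-5p: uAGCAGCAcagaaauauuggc
hsa-miR-16-5p: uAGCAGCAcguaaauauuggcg
hsa-miR-15a-5p: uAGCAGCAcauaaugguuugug
hsa-miR-15b-5p: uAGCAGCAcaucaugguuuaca

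The opposite arm of the precursor and the neighbouring miR-503 have other seeds and stand apart from this group. The last base of the miR-503-5p seed differs from that of miR-424-5p, whereas the seed of miR-424-3p is a different sequence.

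hsa-miR-503-5p: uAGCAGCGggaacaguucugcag
hsa-miR-424-3p: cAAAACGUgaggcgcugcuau

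A full match to the seed of miR-424-5p in a transcript reads UGCUGCU. Transcript sequences of LPP and its relatives were not analysed here, so no statement is made on such matches in them.

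Across the arrays, 66.8% to 70.1% of the spots were well above background in a channel, with median spot signals of 165 to 314 over median local backgrounds of 28 to 70. Of 42405 probes, 25664 were measured, a term used here for probes that were well above background for control and for pre-miR-424 RNA alike on each array, with no outlier spot. The SD of a single array, from the difference between the arrays, was 0.24 on the log2 scale over these probes. Their ratios of pre-miR-424 over control correlated only weakly between the 2 arrays (Pearson r = 0.16). At 2-fold, 25 probes rose or fell with the dye, against 36 that changed in the same direction with pre-miR-424 on both arrays. All 8 epithelial markers examined (KRT5, KRT14, KRT8, KRT18, KRT19, TP63, CDH1 and EPCAM) were measured, and 5 of 9 markers of stromal, endothelial or immune cells passed the same criterion, among them PTPRC, the pan-leukocyte CD45, so that this criterion alone does not separate cell types. No marker of either list changed by 1.5-fold on both arrays. Of the 8 epithelial markers 7 had log2 ratios of opposite sign on the arrays, as did 6422 of all 13812 measured genes. The widest gaps were those of KRT18 (0.73 with normal labelling and −0.55 with swapped dyes) and KRT5 (0.092 and −1.09), and KRT19 was lower on both (−0.060 and −0.35). In the other list CD68 gave ratios of −0.18 and −0.41, DCN of 0.26 and 0.079 and PTPRC of −0.047 and −0.084, while COL1A1 and DES changed sign. As in any bulk sample, fewer cells with a transcript and less of it per cell cannot be told apart.

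All members were measured, by 8 probes at 15 spots per array, with 0 saturated and 0 outlier spots. LPP, ZYX, TRIP6, AJUBA and LIMD1 each had 1 probe printed as 2 spots, WTIP had 1 probe with 1 spot, and FBLIM1 had 2 probes of 2 spots. A 2-fold change was called where the log2 ratio of pre-miR-424 over control reached 1 in size with equal sign on each array. LPP was the only one of the 8 probes to pass. By the same rule 22 of the 25664 probes, 0.0857%, were lower with pre-miR-424; as LPP was selected on this contrast, nothing is read from the comparison with that share. At a threshold of 1.5-fold the count of member probes was again 1, where 0.429% of all measured probes were lower.

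**Figure D1:**
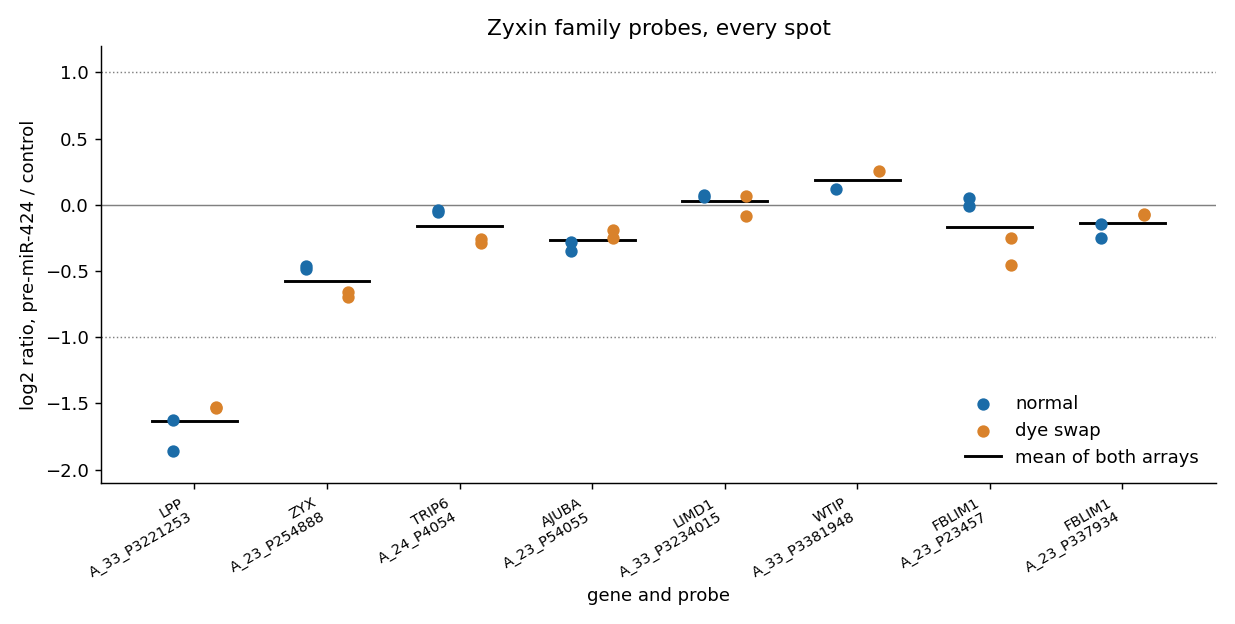
Log2 ratio of pre-miR-424 over control (y axis) at every spot of the 8 probes of the zyxin family (x axis, gene and probe name), in blue on the array with normal labelling and in orange on the dye swap. Black bars are means of both arrays and dotted lines mark 2-fold. LPP lay at a mean of −1.64, ZYX at −0.58, and the other probes between −0.27 and 0.19.

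LPP, the lipoma preferred partner, binds α-actinin and VASP at adhesions and can act with the transcription factor ETV5 in the nucleus. Its transcript (NM_005578, probe A_33_P3221253) gave median signals of 286 and 299 at its 2 spots in the control channel of the normal array, against 135 and 130 in the pre-miR-424 channel. On the dye swap the spots gave 449 and 445 for control and 77 and 75 for pre-miR-424. Control signals were thus higher at every spot, whichever dye the control carried, and the spots of the groups did not overlap. As LPP was chosen by its ratio in these same arrays, this separation is a description only. The spots are repeat prints of the same probe, not replicates of the transfections. How many of all measured probes separate in this way was not tested.

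The LPP signals include what a spot shows without a specific transcript. The 308 negative control spots of each array had median signals of 49 in Cy3 on both arrays, and of 77 and 75 in Cy5 on the normal array and the swap. Above that level, the LPP spots retained 58 and 53 with pre-miR-424 and 237 and 250 with control on the normal array. On the swap they retained 28 and 26 with pre-miR-424 and 374 and 370 with control. The scanner software marked the probe well above background in all 4 channels, but the pre-miR-424 signal lay close to that of the negative controls.

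**Figure D2:**
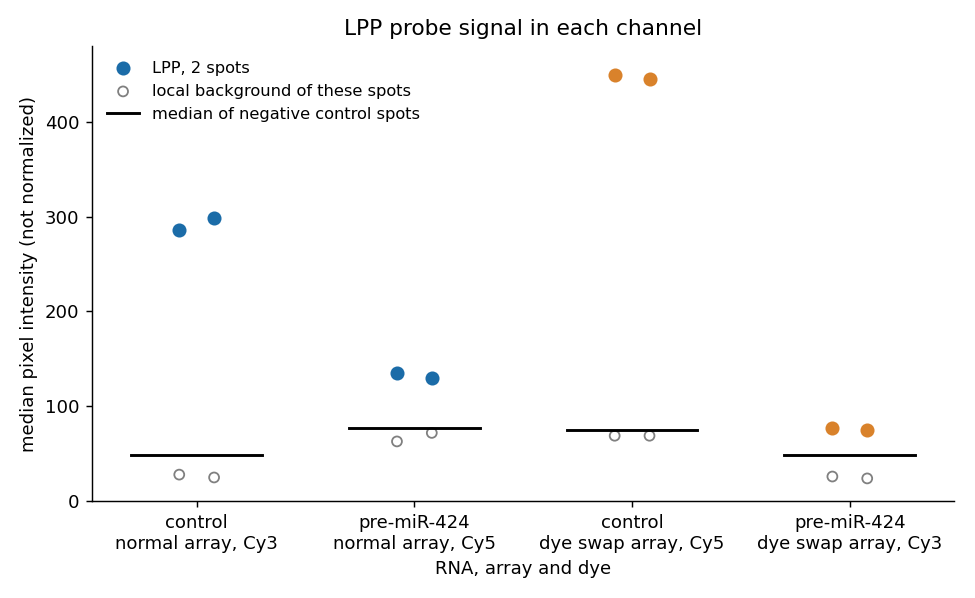
Median pixel intensity, not normalized (y axis), of the 2 LPP spots in each channel (x axis: RNA, array and dye), in blue on the normal array and in orange on the dye swap. Open circles are local backgrounds of the same spots and black bars are medians of 308 negative control spots. Control RNA gave 286 to 449 and pre-miR-424 RNA 75 to 135.

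After background correction and loess normalization, the log2 ratio of LPP was −1.62 and −1.86 at the spots of the normal array and −1.54 and −1.52 at those of the swap. The array means were −1.74 and −1.53, and their mean was −1.64 (SD 0.15 between the 2 arrays), which is 32.2% of the control level, or 3.11-fold lower. The gap of 0.23 between the LPP spots on the normal array was the largest of any member on any array, and for comparison 95% of all 5255 probes with 2 spots had a gap of at most 0.24 there. The part of the ratio that followed the dye, the difference between the arrays divided by 2, was 0.11 in size. When probes were divided by brightness into 5 equal classes, from dimmest to brightest, LPP fell in class 2, where this dye part had an SD of 0.15 over 5133 probes. Only 7 of the 25664 measured probes had a lower mean ratio than LPP, which thus took place 8 from the bottom, and place 2 among genes represented by their brightest probe.

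The size of the LPP decrease differed between ways of treating the background. The main processing adds an offset of 50 to each channel, which draws the ratio of a dim probe towards 0. Above local background the LPP spots had only 51 to 72 with pre-miR-424, so the main value depends on that offset and may understate the decrease. A normexp offset of 16 in place of 50, which draws dim signals less towards each other, gave −2.03. The ratios of the scanner software, which subtracts its own background estimate, gave −2.91, that is 13.3% of control. Without any background correction the value was −1.71, and in the table deposited by the authors −1.64. The decrease was at least 2-fold under all 11 alternatives.

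The zyxin gene itself, ZYX (NM_003461, probe A_23_P254888), which recruits Ena/VASP proteins to focal adhesions under tension, showed the next lowest ratio. In the normal array its spots gave 1561 and 1747 with control against 1695.5 and 1885 with pre-miR-424, where Cy5 carried the latter, and in the swap 2480 and 3023.5 against 787 and 975.5. The raw signals were therefore higher in Cy5 on both arrays, but the difference was small when pre-miR-424 carried Cy5 and large when control did. After normalization the spots gave −0.46 and −0.48 on the normal array and −0.70 and −0.66 on the swap, all lower with pre-miR-424.

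The mean of the array ratios of ZYX was −0.58 (SD 0.15 between the 2 arrays), or 1.49-fold lower. It did not pass the 1.5-fold threshold, because the normal array gave −0.47. Of all measured probes, 0.869% had a lower mean. ZYX belonged to brightness class 4, where the dye part had an SD of 0.15, and the ZYX mean was 3.76 times that size. The value ranged from −0.68 on the swap alone to −0.47 on the normal array alone and was below 0 under all 10 alternatives. Those that changed only the filter on dim probes or outlier spots could not alter it.

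TRIP6 (NM_003302, probe A_24_P4054), which binds lysophosphatidic acid receptor 2 and adhesion proteins, was the member with the brightest spots. They gave −0.04 and −0.06 on the normal array and −0.26 and −0.29 on the swap. The array means were −0.05 and −0.27 (mean −0.16, SD 0.16), so that the difference between the arrays exceeded the mean ratio. It was also within the SD of 0.23 of the dye part in brightness class 5.

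AJUBA, LIMD1 and WTIP make up the Ajuba branch of the family, which restrains LATS kinases and takes part in microRNA silencing. AJUBA (NM_032876, probe A_23_P54055) was lower at all of its spots, with −0.35 and −0.28 under normal labelling, −0.19 and −0.25 under swapped dyes, and a mean of −0.27 (SD 0.067 between the arrays). In size this was 1.17 times the SD of the dye part in class 5. LIMD1 (NM_014240, probe A_33_P3234015), a tumour suppressor of the lung, gave 0.068 and −0.0093 on the arrays (mean 0.029, SD 0.055), with opposite signs.

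WTIP (NM_001080436, probe A_33_P3381948), first known as a partner of the Wilms tumour protein in kidney podocytes, was the only member higher on both arrays. Its single spot gave signals of 278 with control and 456 with pre-miR-424 on the normal array, and 475 and 296 on the swap. The log2 ratios were 0.12 and 0.25 (mean 0.19, SD 0.093), or 1.14-fold higher, and 1.25 times the SD of the dye part in class 2. The 3 genes of the branch thus did not share a sign, but their means were only 0.19 (LIMD1) to 1.25 (WTIP) times the SD of the dye part in their classes. No divergence within the branch is read from them.

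FBLIM1, or migfilin, joins kindlins to filamin at integrin contacts and was measured by 2 probes. The brighter one (NM_017556, probe A_23_P337934) gave −0.20 and −0.07 on the arrays (mean −0.13, SD 0.087). The other one (NM_001024215, probe A_23_P23457) gave 0.023 with normal labelling and −0.35 with swapped dyes (mean −0.16, SD 0.27). Both means were similar, but the second probe changed sign between the arrays, with a dye part of 0.19 in size that exceeded its mean. The probes belong to different transcript records of the gene, and whether they read different isoforms was not tested.

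Ordered by the mean log2 ratio of the brightest probe, the genes ran from LPP over ZYX, AJUBA, TRIP6, FBLIM1 and LIMD1 to WTIP. The values of the 2 arrays for LPP lay below those for ZYX, and those for ZYX below those for AJUBA. AJUBA and TRIP6 overlapped, as did TRIP6 and FBLIM1. Of the 7 genes, 5 were lower on both arrays, 1 was higher on both, and 1 changed sign, while 26.7% of all measured genes were lower on both arrays and 26.8% were higher. The family median was −0.16, and without LPP it was −0.15, against −0.0042 over all measured genes. With 7 genes of which 1 was chosen for its ratio, these values describe the family only.

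**Figure D3:**
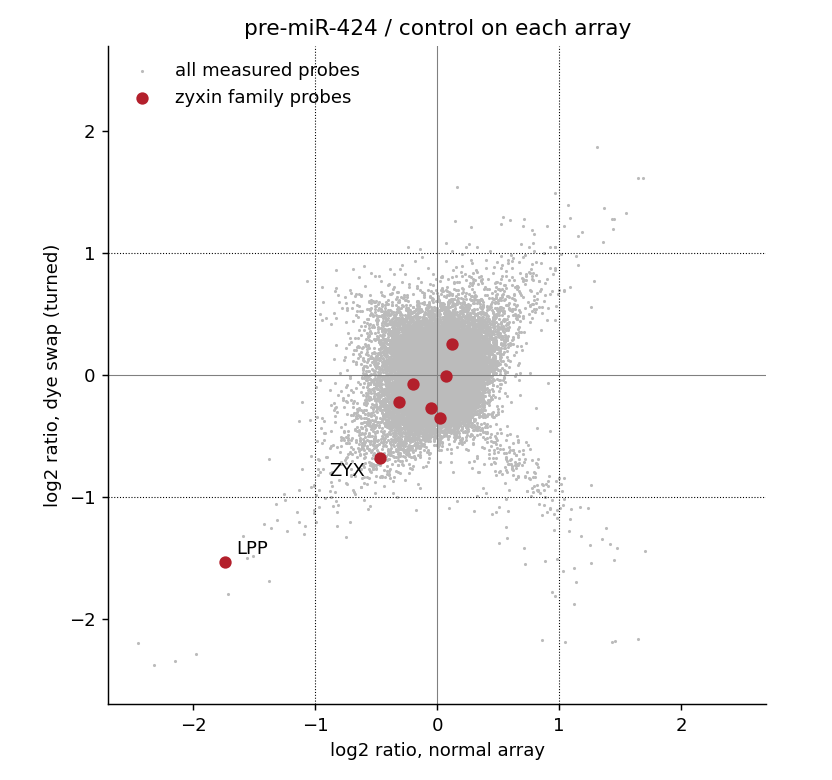
Log2 ratio of pre-miR-424 over control on the normal array (x axis) and on the dye swap with its sign turned (y axis) for all 25664 measured probes in grey and the 8 zyxin family probes in red. Dotted lines mark 2-fold. LPP lies at −1.74 and −1.53, ZYX at −0.47 and −0.68, and the other 6 probes fall within the main cloud; probes in the lower right corner followed the dye.

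Genes whose pair of array ratios was most like that of LPP were found by the Euclidean distance over the 2 arrays. They were PDP2 (NM_020786, distance 0.27), which activates pyruvate dehydrogenase, LSM11 (NM_173491, 0.45), a component of the U7 particle that processes histone mRNA, and LTK (NM_002344, 0.47), a receptor tyrosine kinase. ZNF652 (NM_014897, 0.84), a zinc finger repressor, and CISD3 (NM_001136498, 0.92), a mitochondrial iron-sulfur protein, followed at a larger distance. Their ratios on the normal array and the swap were −1.72 and −1.80 for PDP2, −1.42 and −1.22 for LSM11, and −1.36 and −1.26 for LTK. ZNF652 gave −1.14 and −0.95 and CISD3 −0.999 and −0.981, just outside the 2-fold threshold on at least 1 array. None of the 5 genes was a LIM protein, and each had 1 measured probe, as LPP did. PDP2 and LSM11 also lay in brightness class 2.

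Transcripts beside LPP were looked at after its values were known. The antisense transcript LPP-AS2 (NR_036497), whose gene overlaps the start of LPP, had 1 spot with ratios of −0.18 and 0.054 (mean −0.063), in opposite directions and with signals of 83.5 to 148, near those of the negative controls. BCL6, a transcriptional repressor and the protein-coding gene next to LPP on one side, gave −0.21 and −0.022. TP63, the basal epithelial transcription factor that follows TPRG1 on the other side, gave −0.12 and 0.19. RTP2 and TPRG1 were not measured above background without outlier spots. Of the 3 neighbouring transcripts measured, 0 reached 1.5-fold on both arrays. As only 0.391% of all measured genes were lower and 0.623% higher by that rule, nothing is read from this count.

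Partners of the family formed the next list, with 26 of 28 genes measured. None of them changed by 2-fold or 1.5-fold on both arrays, and their median log2 ratio was −0.018. Over all 13812 genes, 14 (0.101%) passed 2-fold in either direction, while 0.391% were lower and 0.623% higher by 1.5-fold. On both arrays 8 partners (30.8%) were lower and 6 (23.1%) higher, against 26.7% and 26.8% of all measured genes. The largest ratios of equal sign were those of FLNA, the actin crosslinker filamin A that binds FBLIM1, with −0.26 and −0.61 (mean −0.44) and −0.27 and −0.63 at its second probe. SNAI2, a repressor of E-cadherin whose family binds AJUBA, gave 0.26 and 0.36 (mean 0.31), and VASP, the actin-elongating ligand of ZYX and LPP, gave −0.30 and −0.32 (mean −0.31).

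Direct actin partners of ZYX and LPP, and some other partners of the family, were picked out with their values in view. Beside VASP, its relative ENAH gave −0.13 and −0.15, whereas EVL changed sign with 0.17 and −0.20. The α-actinin gene ACTN1 gave −0.06 and −0.21, and ACTN4 was left out as dim or for an outlier spot. ETV5, a nuclear partner of LPP, gave −0.021 with normal labelling but 0.53 with swapped dyes, and SCRIB, a polarity protein that binds LPP, gave 0.029 and −0.069. Of the Argonaute genes, AGO2 was at −0.20 and −0.30 and AGO1 at 0.021 and 0.066. The signs of these partners thus differed, and the largest single value among them was the 0.53 of ETV5 on the swap. Over the 5 brightness classes the dye part had an SD of 0.12 to 0.23, and several of these ratios were small beside it. No divergence between the partners is read from them.

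Focal adhesion core genes were measured for 23 of 25, and none passed 1.5-fold on both arrays. Over all measured genes, 0.391% were lower and 0.623% higher by that rule. The median of the list was −0.032, with 10 genes (43.5%) lower and 5 (21.7%) higher on both arrays. Of all measured genes 26.7% were lower and 26.8% higher. ITGA5, the integrin chain of the fibronectin receptor, gave −0.30 and −0.54 (mean −0.42). VCL, the vinculin that ties talin to actin, gave −0.35 and −0.31 (mean −0.33). ITGA6, a laminin receptor chain of basal epithelium, went the other way with 0.25 and 0.40 (mean 0.32), and its second probe gave 0.42 and 0.36.

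Other LIM proteins of adhesion and actin were measured for 21 of 22. Their median was −0.07, with 11 (52.4%) lower and 5 (23.8%) higher on both arrays, against 26.7% and 26.8% of all measured genes. None passed 1.5-fold, where 0.391% of all measured genes were lower and 0.623% higher. LMO7, an actin-associated protein of cell junctions, gave −0.57 and −0.33 (mean −0.45) at its brightest probe and −0.52 and −0.042 at the other. FHL3 gave −0.32 and −0.41 (mean −0.37). CSRP2, a small LIM protein that bundles actin, gave 0.37 and 0.36 (mean 0.36), with the arrays differing by an SD of only 0.0063.

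Hippo pathway genes and targets, which the Ajuba branch acts on through LATS1 and LATS2, were measured for 19 of 21, with a median of 0.0053. On both arrays 7 (36.8%) were lower and 4 (21.1%) higher, against 26.7% and 26.8% of all measured genes. None passed 1.5-fold, where 0.391% of all measured genes were lower and 0.623% higher. The target gene CCN2, a matricellular growth factor, gave 0.069 and 0.64 (mean 0.35, SD 0.40), so that its value rested on the swap. NF2, the upstream regulator merlin, gave 0.29 and 0.35 (mean 0.32) at its brightest probe but −0.18 and 0.14 at the other, and AMOT gave −0.41 and −0.011 (mean −0.21).

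**Figure D4:**
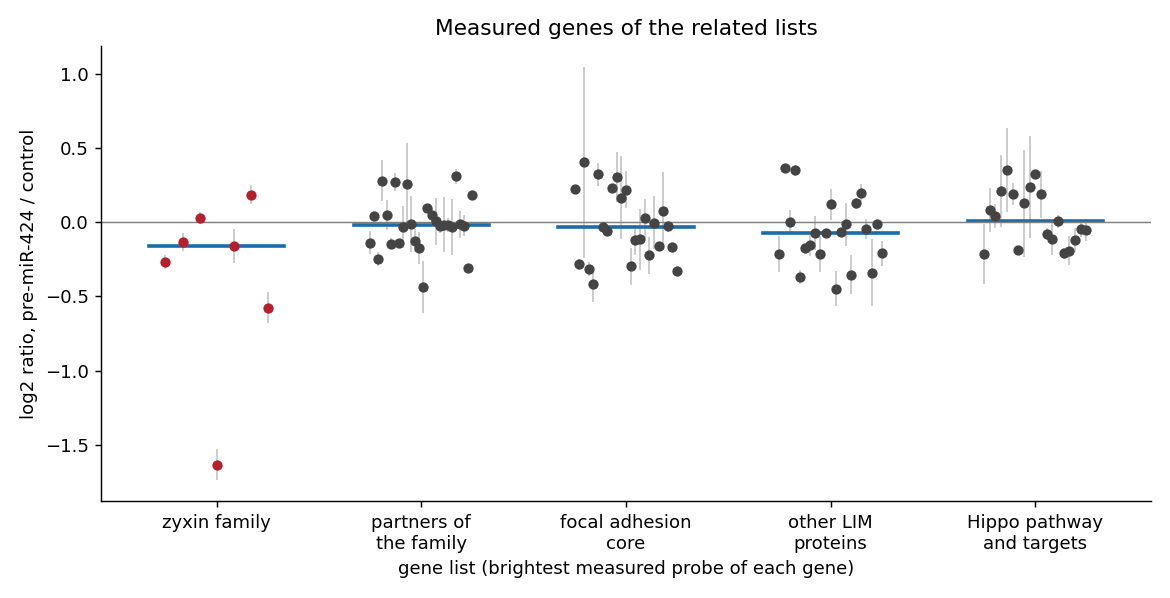
Mean log2 ratio of pre-miR-424 over control (y axis) of every measured gene in the zyxin family (red) and 4 related lists (dark grey), by list (x axis); thin lines join the values of the 2 arrays and blue bars are list medians. LPP stands alone at −1.64, and the means of the genes outside the family lie between −0.45 and 0.40.

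Across the processing alternatives the members kept their order at the low end. LPP lay below ZYX in each, and ZYX below all others. The ratio of AJUBA stayed between −0.32 and −0.22 and that of TRIP6 between −0.27 and −0.05. LIMD1 moved between −0.029 and 0.068 with either sign, and WTIP stayed above 0, between 0.12 and 0.25.

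**Figure D5:**
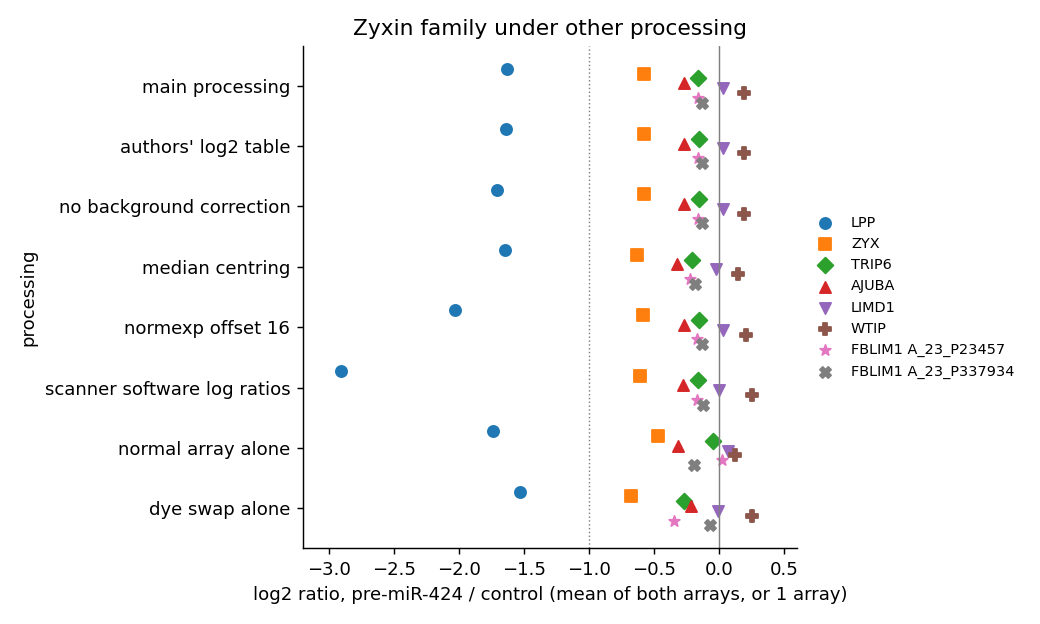
Log2 ratio of pre-miR-424 over control (x axis) for each member probe (symbols) under the main processing and 7 alternatives (y axis), as the mean of both arrays or for 1 array alone. LPP ranged from −2.91 to −1.53 and ZYX from −0.68 to −0.47, while the other probes lay between −0.35 and 0.25.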

How the data were processed

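Members and lists were chosen with earlier results of these data known. The deposited scanner files (Agilent Feature Extraction 10.7.3.1, design on hg19) hold the median pixel intensity of each spot and its local background, not normalized, together with software-processed intensities (background and dye corrected). They also list a deposited log10 ratio, red over green. A separate log2 table of the authors exists, for which the submitters' processing notes name limma. Its scale and direction are unstated: set against the values computed here, it held red (Cy5) over green (Cy3) on the log2 scale without turning the swap (r = 0.991 and 0.988, column medians 0.024 and 0.036), and its centring is unknown.

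Median signals were used because the scanner files hold no mean signals, which the plan had foreseen as a possible choice. Backgrounds were corrected by normexp (offset 50, all spots) in limma 3.58.1 under R 4.3.3, control spots were left out, loess was applied within arrays, the swap was turned, and repeat spots were averaged per probe. The offset draws ratios of dim probes towards 0. Dye swaps counted as 1 replicate; the 2 arrays limit the precision. A symbol was found by accession for 96.9% of 26599 RefSeq probes, ignoring versions (GRCh38.p14 table, names and gene order only), and the brightest measured probe stood for a gene. The rule for named genes took the members, per list the 3 largest mean ratios of equal sign and any past 1.5-fold, and the 5 genes nearest to LPP. Genes beside LPP, LPP-AS2, KRT5, KRT18, and ENAH, EVL, ACTN1, ETV5, SCRIB, AGO1 and AGO2 fall outside it and were chosen after their values were seen. Alternatives were other backgrounds, centring, software or deposited ratios, filters, thresholds and single arrays. The steps were tested on simulated data, with changes planted only in probes brighter than LPP, so recovery at its brightness was not tested. Python 3.11.15 with pandas 2.3.3 was used.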

Additional observations from a re-analysis of the deposited data

How the results depend on the processing

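LPP kept its direction under every alternative run, from −2.91 (scanner software ratios) and −2.03 (offset 16) to −1.53 (swap alone). The run with offset 16 changed only the offset, whereas the cause of the larger decrease in the software ratios was not tested. The count of member probes past 2-fold was 1 under all 12 alternatives, though the weaker filters could not change it, as every member probe was already measured. The count over all probes, 36, was 67 with the software ratios, 218 at 1.5-fold, which follows from the lower threshold, and 86 to 133 with 1 array alone, where no repeat is required. The median of the members other than LPP, −0.15, was −0.20 under median centring and −0.15 to −0.12 with 1 array alone. The median shift of all measured probes under median centring was 0.10 (normal) and −0.18 (swap), and ratios under it are relative to that shift. The partner median, −0.018, was −0.065 under median centring and −0.061 on the swap alone, and turned positive (0.024) on the normal array alone. The focal adhesion median was −0.092 under median centring, −0.047 with outlier spots kept, −0.062 when probes of a gene were averaged, and −0.099 to −0.081 with 1 array alone. The median of the other LIM proteins was −0.12 under median centring, −0.11 as the mean over probes, −0.093 with software ratios, −0.069 with offset 16, −0.067 with either weaker filter on dim probes, and −0.08823 to −0.08772 with 1 array alone. The Hippo median turned negative under median centring (−0.054), with outlier spots kept (−0.021) and with 1 array alone (−0.040 to −0.011). The cause of these small shifts was not tested. A mean-signal alternative was not run, as the scanner files hold no mean signals. Each ratio was taken within an array, so the comparison was already paired by array. The LPP signal left with pre-miR-424 was close to the negative controls, and the part of this in the spread of its values was not tested.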
